A study of Homo sapiens with 14 samples.

Results

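The genes described here are 45 protein-coding genes of DNA replication and S phase, the part of the cell cycle in which the genome is copied. They were taken by symbol from a table of read counts for 59250 gene symbols, with no use of their measured values, and all 45 were found. The list runs from origin recognition and the loading of the MCM2 to MCM7 helicase (10 genes) through helicase activation (6), primase and polymerases (8), and the sliding clamp, its loader and the joining of Okazaki fragments (7). It goes on to deoxynucleotide supply (4), the G1/S cyclins and E2F factors (5), histone supply and chromatin assembly (3), and a checkpoint adaptor with a ubiquitin ligase receptor (2).

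RNA from a pair of human cancer lines was sequenced, after poly(A) capture according to the labels of all libraries. NUGC4, a gastric cancer line, was present as unmodified parental cells (wild type, 4 libraries), as single-cell clones made with CRISPR-Cas9 against ARID1A (2 libraries labelled knockout), as cells with CRISPR interference (CRISPRi) against ARID1A by the guide sgRNA1 (2 libraries) and as the vector control of that system (1 library used here, the other labelled vector sample being not analysed here). HepG2, a liver cancer line, had received by lentivirus either an empty vector (2 libraries) or FLAG-CTNNB1(ΔEx3)-GFP under the EF1α promoter (2 libraries), a beta-catenin that lacks the exon with its degradation signal. HepG2 itself carries a deletion of that region in an endogenous CTNNB1 allele. ARID1A belongs to the BAF complex, which remodels chromatin. Whether the libraries of 1 group are separate cultures is not stated in the labels, so each p-value measures only the spread between these libraries.

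Origins of replication are licensed in G1, when ORC, CDC6 and CDT1 load the MCM2 to MCM7 hexamer onto DNA. At the start of S phase CDC45 and the GINS complex turn the loaded hexamer into an active helicase, and the polymerases, PCNA and the clamp loader RFC follow. Most of these genes are classical targets of the E2F factors, which cyclin E and its kinase release from the retinoblastoma protein, so their transcripts peak around the G1/S boundary and mark proliferating cells. In RNA from whole cultures, fewer cells in S phase and less RNA per cell cannot be told apart.

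A RefSeq table (GRCh38.p14) gave a window from 250 bases before to 50 bases after the start for 39 members. The E2F letters TTTGGCGC, TTTGCCGC, TTTCGCGC or TTTCCCGC, on either strand, were found in 21 of these 39 (53.8%), against 3.99% of the 27305 genes in that table. Shown are 60 bases of that window around the matches for 8 of these 21 members, all of them named below. They run 5′ to 3′ on the strand of the gene, with the E2F letters in capitals. The windows of TK1, RRM1, RRM2 and CCNE1, also named below, held no such letters and are not shown. In MCM6 a pair of matches on opposite strands overlap, and E2F1 holds a pair of separate ones. The first match of each stretch begins from 8 bases (DTL) to 137 bases (POLA1) before the start.
E2F1: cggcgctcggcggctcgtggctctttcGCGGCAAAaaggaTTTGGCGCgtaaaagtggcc
E2F2: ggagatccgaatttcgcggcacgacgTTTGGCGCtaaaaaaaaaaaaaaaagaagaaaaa
MCM6: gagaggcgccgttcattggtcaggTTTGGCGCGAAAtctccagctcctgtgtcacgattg
POLA1: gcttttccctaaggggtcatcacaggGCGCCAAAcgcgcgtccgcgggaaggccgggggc
POLA2: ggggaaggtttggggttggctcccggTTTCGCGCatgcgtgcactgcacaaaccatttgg
PCNA: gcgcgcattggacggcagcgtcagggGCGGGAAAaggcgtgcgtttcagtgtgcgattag
RFC3: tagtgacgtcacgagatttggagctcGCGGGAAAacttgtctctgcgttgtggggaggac
DTL: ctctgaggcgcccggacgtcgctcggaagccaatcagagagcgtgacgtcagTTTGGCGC
These stretches lie at chr20:33686386-33686445 (minus strand), chr1:23531242-23531301 (minus), chr2:135876498-135876557 (minus), chrX:24693755-24693814 (plus), chr11:65261883-65261942 (plus), chr20:5126648-5126707 (minus), chr13:33818068-33818127 (plus) and chr1:212035688-212035747 (plus). The CCAAT letters, searched on either strand, were in 22 of 39 members (56.4%) and in 39.7% of all genes of the table. The TCF/LEF letters CTTTGAT, those bound by the partners of beta-catenin, were in 0 of 39 member windows and in 3.18% of all genes, which says only that these letters are not in these windows. A match is a description of the sequence and no binding was measured.

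The libraries fell into kinds that the groups do not explain, and this bears on how the values can be read. Levels are given as CPM, the count scaled to the total of its library. Total counts ran from 9167761 to 17668394 for NUGC4 and from 13138681 to 23914120 for HepG2, of which 19344 to 80574 per library fell on the 45 members. Ribosomal RNA took 8.04 to 11.7% of counts in the wild-type libraries and 6.30% in knockout replicate 1, but 0.161 to 0.251% in all others, and canonical histone genes 0.277 to 0.344% against at most 0.0188%, although the labels give the same capture and library kit for all of them. The ARID1A level was 128, 137, 117 and 118 CPM in wild type and 34.3 CPM in knockout replicate 1, but 140.6 CPM in its labelled replicate 2, beside 139.8 CPM in the vector control and 57.6 and 53.5 CPM with sgRNA1. Over the counts of all genes with enough reads, the library labelled knockout replicate 2 differed from the vector library by a chi-square of 2.71 per degree of freedom and from knockout replicate 1 by 322. It was therefore left out of the fits and its values are given beside the others, so the knockout group is 1 library. ZNF10, discussed with the guide below, stood at 19.9 CPM in it and at 23.4 CPM in the vector library, but at 0 CPM in knockout replicate 1. The count table held 1 more column, named as another ARID1A knockout, that matched no sample by name and was not used. Whether knockout and vector names were exchanged for some libraries was not tested. CTNNB1 stood at 385 and 379 CPM in HepG2 vector cells and at 1538 and 1551 CPM in the overexpressing cells. The epithelial marker KRT8 and the hepatocyte marker ALB led their lists in NUGC4 and HepG2, and of 6 leukocyte markers the T cell marker CD3E was at 0 in all 13 libraries, while the list summed to 1284 to 2928 CPM, nearly all of it LYZ, the lysozyme gene.

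Levels were compared between members per length, as CPM per kilobase of the merged exons of GENCODE v29 (GRCh38). In wild-type NUGC4 the median member stood at 12.0 CPM per kilobase, and the members ran from 2.36 to 51.4. The highest were PCNA, the sliding clamp (51.4 ± 1.13, SD, n = 4), TK1, the S phase thymidine kinase (48.5 ± 3.38), and MCM7 (40.9 ± 2.27). PCNA and TK1 overlapped across libraries, as did MCM7 and MCM2 behind them. The lowest were CCNE2, the second E cyclin, and GINS4, both at 2.36 CPM per kilobase.

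The 6 subunits of the MCM hexamer, which is built from equal numbers of each, were not equal in transcript. In wild-type NUGC4 they ran from 14.9 ± 1.57 CPM per kilobase for MCM5 and 15.7 ± 0.483 for MCM6, through 27.2 ± 1.03 for MCM3 and 29.1 ± 1.31 for MCM4, to 36.4 ± 3.69 for MCM2 and 40.9 ± 2.27 for MCM7, a span of 2.74-fold. Neighbours in each of these 3 pairs overlapped between libraries, whereas the pairs did not overlap each other. In HepG2 vector cells the span was 9.96-fold, from 9.25 ± 0.350 for MCM6 to 92.1 ± 0.0887 for MCM3 (SD, n = 2), and the order differed. Exons of 19 members, MCM2 and MCM7 among them, overlap exons of another gene in GENCODE v29, and how the authors treated strand is not given in the sources used here.

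**Figure D1:**
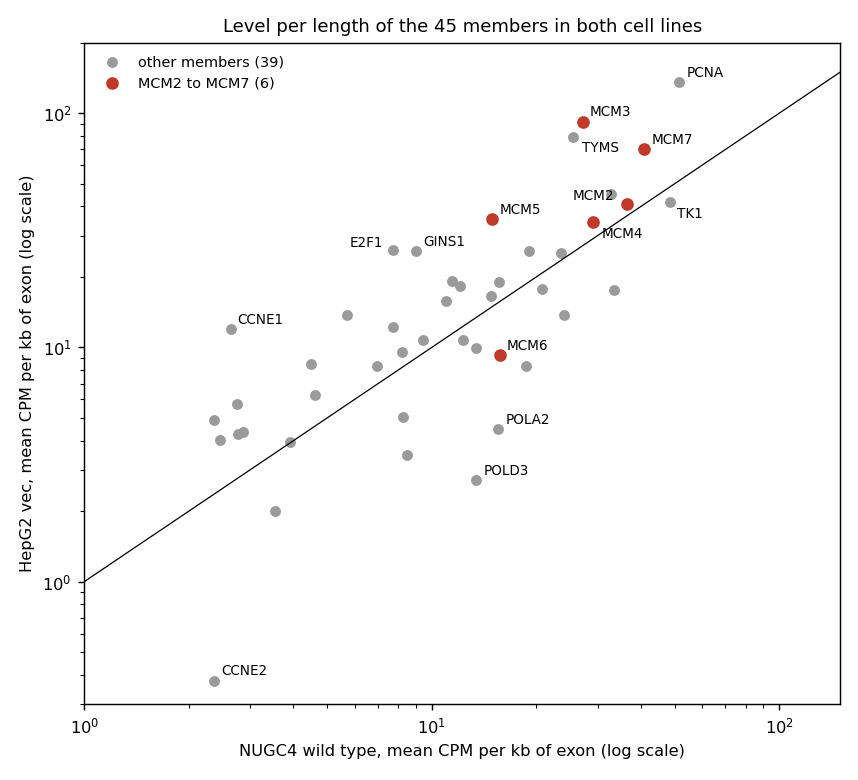
Mean level of each of the 45 members as CPM per kilobase of exon in NUGC4 wild type (x axis, 4 libraries) and HepG2 vector cells (y axis, 2 libraries), both on log axes, with the line of equal levels. PCNA lies highest in both plotted groups and CCNE2 lowest, and the 6 helicase subunits, in red, spread more widely in HepG2.

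Some members also separated the cell lines. MCM3, GINS1, TYMS, CCNE1 and E2F1 were at least 2-fold higher per length in HepG2 vector cells than in both wild-type and vector NUGC4 cells, and POLA2, POLE, POLD3 and CCNE2 at least 2-fold lower than in both. CCNE1, the cyclin that drives entry into S phase, stood at 5.12, 6.77, 4.91 and 5.10 CPM in wild-type NUGC4, at 10.8 CPM in the NUGC4 vector library and at 23.6 and 26.1 CPM in HepG2 vector cells. Its relative CCNE2 went the other way, with 9.16, 8.31, 6.98 and 7.91 CPM in wild-type NUGC4 and 0.913 and 1.68 CPM in HepG2. POLD3, a subunit of polymerase delta, stood at 55.8, 60.6, 49.1 and 56.8 CPM in wild-type NUGC4, 51.6 CPM in the vector library and 9.21 and 13.2 CPM in HepG2 vector cells, 4.96-fold lower per length than in wild type. The lines were sequenced with no shared control and no test was made between them. The share of all genes that differed by the same 2-fold rule was not computed. How many members differed is therefore not read as a result.

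Over all 45 members the summed level was 2076, 2219, 2110 and 2179 CPM in wild type and 1638 CPM in knockout replicate 1. It was 2777 CPM in the vector library, 2935 and 2899 CPM with sgRNA1 and 2741 CPM in labelled knockout replicate 2. In HepG2 it was 2766 and 2774 CPM with the vector and 3421 and 3369 CPM with CTNNB1. Within each kind of NUGC4 library the treated libraries thus lay outside their controls, below them for the knockout and above for the guide, and in HepG2 both overexpressing libraries lay above both controls. Between the kinds the gap was wider still for some single members, as in FEN1, the flap nuclease of Okazaki fragments. FEN1 stood at 42.8, 53.3, 46.6 and 48.0 CPM in wild type and 45.2 CPM in knockout replicate 1. It stood at 107 CPM in vector and 109 and 106 CPM in sgRNA1 cells. Other members went the other way, as POLA1 did, with a mean of 46.6 CPM in wild type and 28.4 CPM in vector. The primase and polymerase genes summed to a mean of 418 CPM in wild type and 367 CPM in vector. The part of library composition in these gaps was not tested, so each effect was taken as a contrast within a kind. The NUGC4 fit itself held libraries of both kinds, which shared its filter, scaling and estimate of the spread. Levels set side by side across kinds, those of the cell lines above included, are a description.

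**Figure D2:**
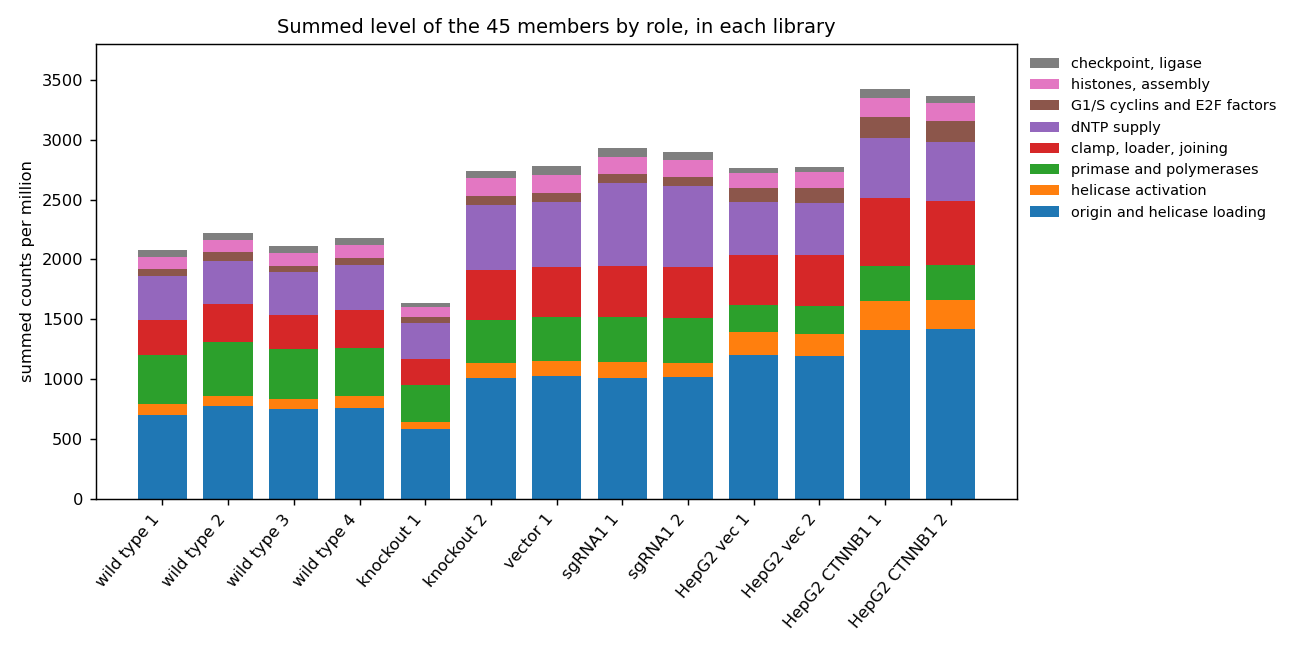
Summed CPM of the members in each of the 13 libraries (bars from 0), stacked by role, 1 bar per library. The knockout replicate 1 bar, at 1638 CPM, is the lowest, and the 2 HepG2 CTNNB1 bars, at 3421 and 3369 CPM, the highest.

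Knockout replicate 1 was compared with the 4 wild-type libraries to ask how the replication genes stand in cells in which ARID1A was targeted. In this library 22 of the 45 members (48.9%) were lower and 3 (6.67%) higher at an adjusted p under 0.05 in edgeR's quasi-likelihood test, while of the 18913 genes tested 18.7% were lower and 19.5% higher. The median log2 fold change was -0.34 over the members, or -20.8%, and -0.07 over all genes tested. The genes that fell included RFC3 of the clamp loader and subunits of polymerases alpha and epsilon and of the CMG helicase, together with TK1, E2F2, E2F8 and DTL. CCNE1, CDC6 and RRM2 rose.

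The largest fall among the members was that of RFC3, a clamp loader subunit (chr13:33818049-33966558, GRCh38), which stood at 70.0, 70.2, 58.2 and 77.1 CPM in wild type and 30.9 CPM in knockout replicate 1 (log2 fold change -1.03 ± 0.15 SE, adjusted p = 3.42e-05). TK1, which salvages thymidine for DNA synthesis, stood at 81.1, 89.3, 87.7 and 76.7 CPM and 39.8 CPM (log2 fold change -0.95 ± 0.13 SE, adjusted p = 1.47e-05). In both genes the knockout library lay well below every wild-type library, and the fitted level fell by 50.9% for RFC3 and by 48.1% for TK1. The library labelled knockout replicate 2 held 43.9 CPM of RFC3 and 124 CPM of TK1, near the vector library's 51.3 and 126 CPM.

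Among the polymerases 6 of 8 genes fell. POLA1, the catalytic subunit of polymerase alpha, which starts each new strand after primase, stood at 44.3, 48.1, 47.2 and 46.7 CPM in wild type and 23.8 CPM in the knockout (log2 fold change -0.84 ± 0.14 SE, adjusted p = 1.36e-04). POLE2, an accessory subunit of the leading strand polymerase epsilon, was a low gene, with 5.82, 5.33, 5.34 and 5.41 CPM in wild type and 2.71 CPM in the knockout (log2 fold change -0.89 ± 0.29 SE, adjusted p = 0.0233). Both primase genes, POLA2 and POLE fell by less, with log2 fold changes from -0.55 for PRIM1 to -0.33 for POLE. The polymerase delta genes were not past the threshold, POLD1 at -0.21 and POLD3 at 0.25.

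The 3 E2F factors of the list had unlike values. E2F2, an activating member of the family, stood at 12.3, 17.3, 14.5 and 13.4 CPM in wild type and 7.15 CPM in the knockout (log2 fold change -0.88 ± 0.22 SE, adjusted p = 0.00421). E2F8, an atypical E2F that represses the same kind of target, stood at 15.0, 17.3, 10.9 and 12.5 CPM and 7.53 CPM (log2 fold change -0.77 ± 0.24 SE, adjusted p = 0.0162). E2F1, the best known activator, stood at 18.3, 22.1, 20.0 and 17.1 CPM and 17.0 CPM, and was not past the threshold (log2 fold change -0.06 ± 0.17 SE, adjusted p = 0.808). So E2F2 and E2F8 lay below every wild-type library, while E2F1 lay close to the lowest of them.

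CCNE1, at 5.12, 6.77, 4.91 and 5.10 CPM in wild type and 10.5 CPM in the knockout, had the largest change of any member (log2 fold change 1.07 ± 0.22 SE, adjusted p = 7.67e-04), a rise of 110%. RRM2, the regulated subunit of ribonucleotide reductase, which makes deoxynucleotides, stood at 127, 125, 117 and 138 CPM and 148 CPM (log2 fold change 0.35 ± 0.11 SE, adjusted p = 0.0152). Its partner RRM1, the large subunit, fell over the same libraries, from 119, 109.5, 105 and 115 CPM to 82.5 CPM (log2 fold change -0.32 ± 0.12 SE, adjusted p = 0.039). The third riser was CDC6, the ATPase that loads the helicase with ORC, with 47.1, 45.8, 41.7 and 46.5 CPM and 55.2 CPM (log2 fold change 0.41 ± 0.12 SE, adjusted p = 0.0122). All 3 risers stood higher still in the vector library, at 10.8 CPM for CCNE1, 209 CPM for RRM2 and 86.9 CPM for CDC6. Labelled knockout replicate 2 held 9.72, 209 and 86.9 CPM.

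Of the loading genes, ORC1 (-0.70 ± 0.17 SE), CDT1 (-0.44 ± 0.13), MCM4 (-0.40 ± 0.11) and MCM5 (-0.45 ± 0.14) fell by these log2 fold changes. MCM2 stood at 112, 141, 140.1 and 134 CPM in wild type and 108 CPM in the knockout and was not past the threshold (log2 fold change -0.16 ± 0.12 SE, adjusted p = 0.332). MCM3, MCM6 and MCM7 had values from -0.28 to -0.17 and were not past it either. The whole hexamer thus had negative values, of which 2 of 6 passed the test. Of the helicase activators, CDC45 (-0.73 ± 0.21), GINS1 (-0.48 ± 0.15) and GINS4 (-0.56 ± 0.21) fell, while MCM10 (-0.43 ± 0.26), GINS2 (-0.34 ± 0.23) and GINS3 (0.15 ± 0.26) did not pass.

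DTL, the receptor through which a CUL4 ubiquitin ligase removes CDT1 in S phase, stood at 36.0, 36.3, 37.0 and 42.4 CPM in wild type and 19.6 CPM in the knockout (log2 fold change -0.82 ± 0.15 SE, adjusted p = 2.55e-04). PCNA, on which that reaction takes place, stood at 75.9, 75.7, 73.5 and 77.6 CPM and 58.1 CPM and missed the threshold (log2 fold change -0.25 ± 0.11 SE, adjusted p = 0.0866), although the knockout library lay below all 4 wild-type libraries. LIG1, the ligase that seals Okazaki fragments (-0.63 ± 0.15), and the chromatin assembly factors CHAF1A (-0.49 ± 0.15) and CHAF1B (-0.43 ± 0.17) fell, whereas SLBP, which binds histone mRNA (0.02 ± 0.13), FEN1 (0.05 ± 0.13) and the checkpoint adaptor CLSPN (0.19 ± 0.17) had values near or above 0. With composition-scaled values the knockout library lay below all wild-type libraries for 34 members and above them for 5. The share of all genes that lay below was 38%, with a single library set against 4. The share of all genes that lay above was not computed, so the 5 members are not read as a result.

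These calls rest on 1 library. The knockout cells were cloned from single cells, and the wild type is the parental line. Cloning and the targeting of ARID1A therefore cannot be told apart here. With the library labelled knockout replicate 2 kept in the knockout group, 3 members were lower and 3 higher, and the median was 0.15. Scaling to library totals alone gave 28 lower and 1 higher beside a median of all genes of -0.20, and 2789 genes higher and 4474 lower in place of 3682 and 3546. Some falls depended on the settings of the fit. Fewer members were lower with DESeq2, with limma-voom and with only the knockout and wild-type libraries fitted. The medians of the members there were -0.32, -0.33 and -0.31. Of 14 alternative runs, PRIM1 and CHAF1B were past the threshold in 4, POLE in 5 and GINS4 in 6. RRM1 was past it in 7, PRIM2 in 8, and each other called member in at least 11.

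**Figure D3:**
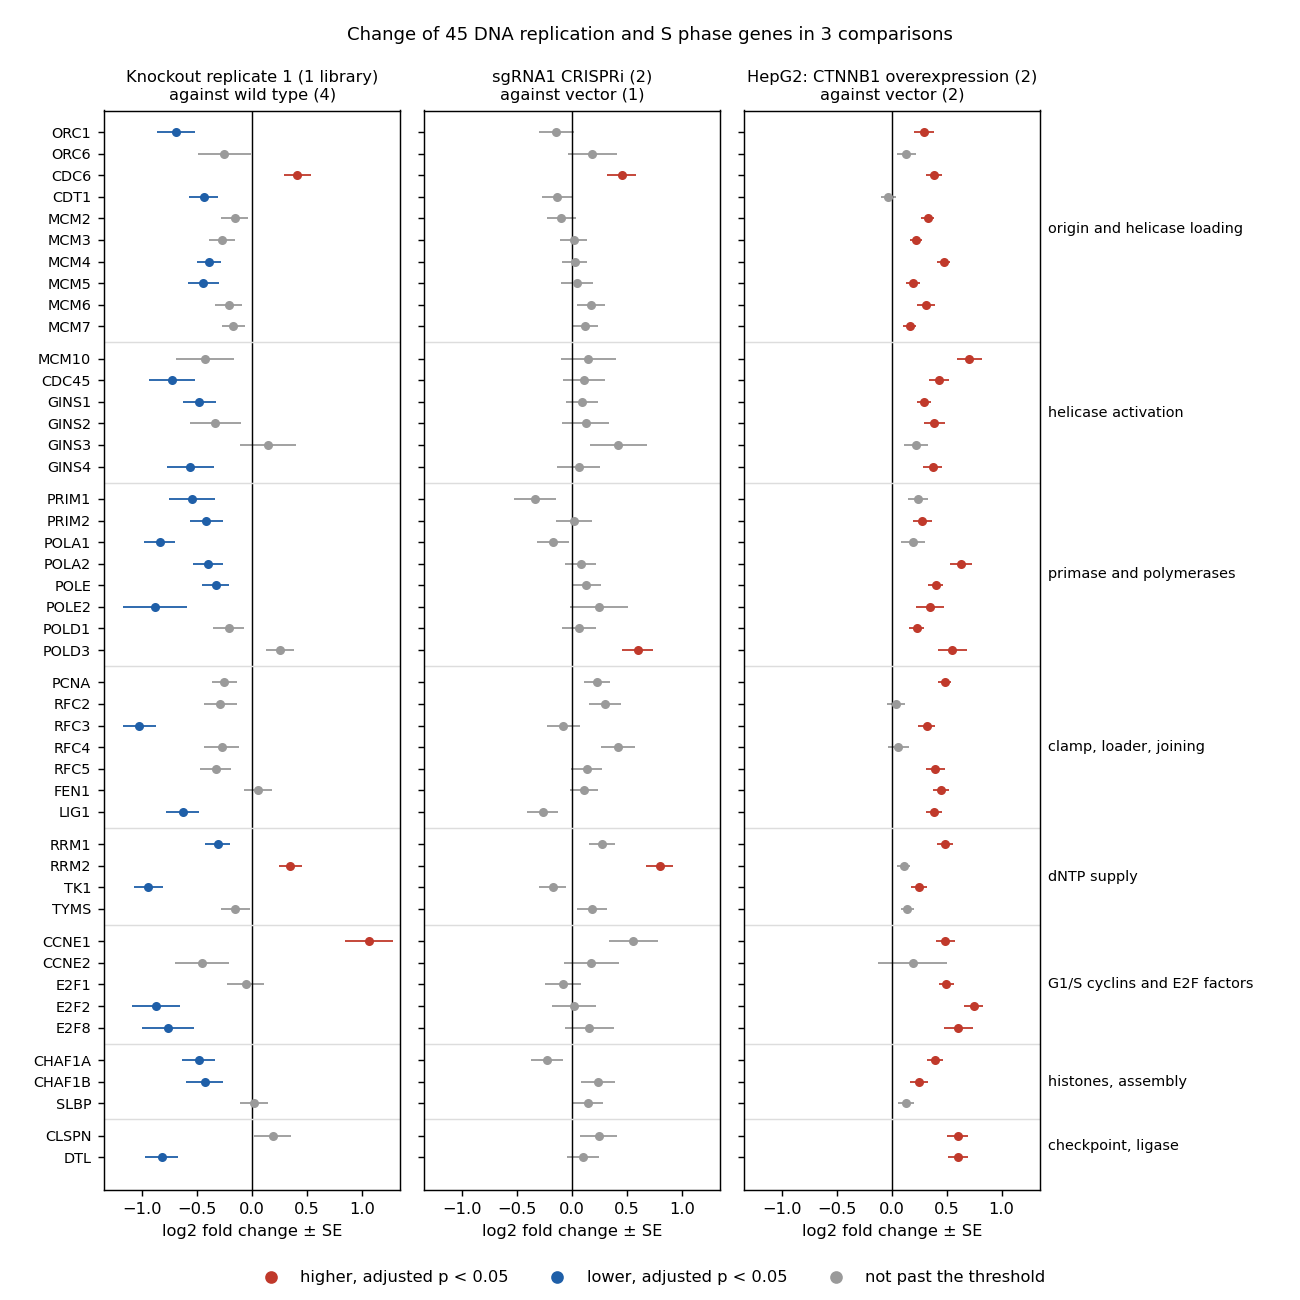
Log2 fold change ± SE of all 45 members, in order of role, for knockout replicate 1 against wild type (left), sgRNA1 against vector (middle) and CTNNB1 overexpression against vector in HepG2 (right); filled colour marks an adjusted p under 0.05. Points past the threshold lie mostly left of 0 in the first panel (22 of 25), are 3 in the second, all right of 0, and lie right of 0 in the third (34 of 34).

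Knockdown by CRISPRi with sgRNA1 was compared with the vector library, the other way in which ARID1A was reduced. Here 3 members rose and 0 fell (edgeR, adjusted p under 0.05; 6 and 0 at an unadjusted p under 0.05; 3 and 0 with both DESeq2 and limma-voom), and 4.62% of all genes tested were higher and 4.11% lower. The median log2 fold change was 0.12 over the members and 0.00 over all genes tested. RRM2 had the largest change, with 209 CPM in the vector library and 344 and 338 CPM in the sgRNA1 libraries (log2 fold change 0.80 ± 0.12 SE, adjusted p = 2.69e-04), a rise of 74.1%. POLD3 stood at 51.6 CPM and 75.5 and 70.8 CPM (log2 fold change 0.60 ± 0.14 SE, adjusted p = 0.0105), and CDC6 at 86.9 CPM and 118 and 105 CPM (log2 fold change 0.45 ± 0.13 SE, adjusted p = 0.0381). In all 3 genes both sgRNA1 libraries lay above the vector library.

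The other members that the list singles out did not pass the test. CCNE1 held 10.8 CPM in the vector library and 16.0 and 13.8 CPM with sgRNA1 (log2 fold change 0.56 ± 0.22 SE, adjusted p = 0.146), and PCNA 105 CPM and 114 and 115 CPM (log2 fold change 0.22 ± 0.12 SE, adjusted p = 0.3). MCM2 stood at 156 CPM and 137 and 135 CPM (log2 fold change -0.10 ± 0.13 SE, adjusted p = 0.74), and E2F1 at 27.6 CPM and 24.4 and 24.5 CPM (log2 fold change -0.08 ± 0.17 SE, adjusted p = 0.849). MCM2 and E2F1 were thus slightly under the vector library in both sgRNA1 libraries, and CCNE1 and PCNA above it. The lowest value of any member was -0.34 ± 0.19 for PRIM1, the catalytic primase subunit (adjusted p = 0.348). No member of the helicase activation, clamp, histone or checkpoint groups passed.

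The vector library is single, and the libraries differ in more than the guide: ZIM3, a KRAB zinc finger gene, stood at 26.1 and 28.2 CPM with sgRNA1 and at 0 CPM in the vector library, and ZNF10, another, at 23.4 CPM in the vector library and at most 0.0614 CPM with sgRNA1. Repressor domains of both are used in CRISPRi constructs, so the guide and the construct cannot be told apart. With only these 3 libraries in the fit 6 members were higher and 2 lower, and with either sgRNA1 library left out 1 was higher. When labelled knockout replicate 2 was kept in the shared fit, no member was past the threshold.

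The effects of the knockout and of the guide were set against each other in the same fit. The difference was past the threshold for 5 members (11.1%), all lower in the knockout comparison, and for 0 in the other direction (0 at an unadjusted p under 0.05, and 0 with DESeq2 and limma-voom). Of all genes 4.02% were lower by the same test, and more were higher than lower. The 0 in the other direction is therefore not read as a result about the members. The 5 members were RFC3 (-0.95 ± 0.21 SE, adjusted p = 0.00864), DTL (-0.92 ± 0.21, 0.0086), TK1 (-0.77 ± 0.18, 0.0111), POLA1 (-0.67 ± 0.20, 0.0472) and RRM1 (-0.59 ± 0.17, 0.035), each a difference of log2 fold changes. RRM1, for example, stood at 119, 109.5, 105 and 115 CPM in wild type and 82.5 CPM in the knockout, but at 149 CPM in the vector library and 171 and 167 CPM with sgRNA1. For DTL the sgRNA1 libraries, at 39.9 and 38.7 CPM, stood beside the vector library's 39.2 CPM, while the knockout lay far under wild type. For the other members that fell in the knockout the difference between the reagents was not past the threshold. With 1 sgRNA1 library left out the count was 1 or 3, and without wild-type replicate 3 it was 12.

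**Figure D4:**
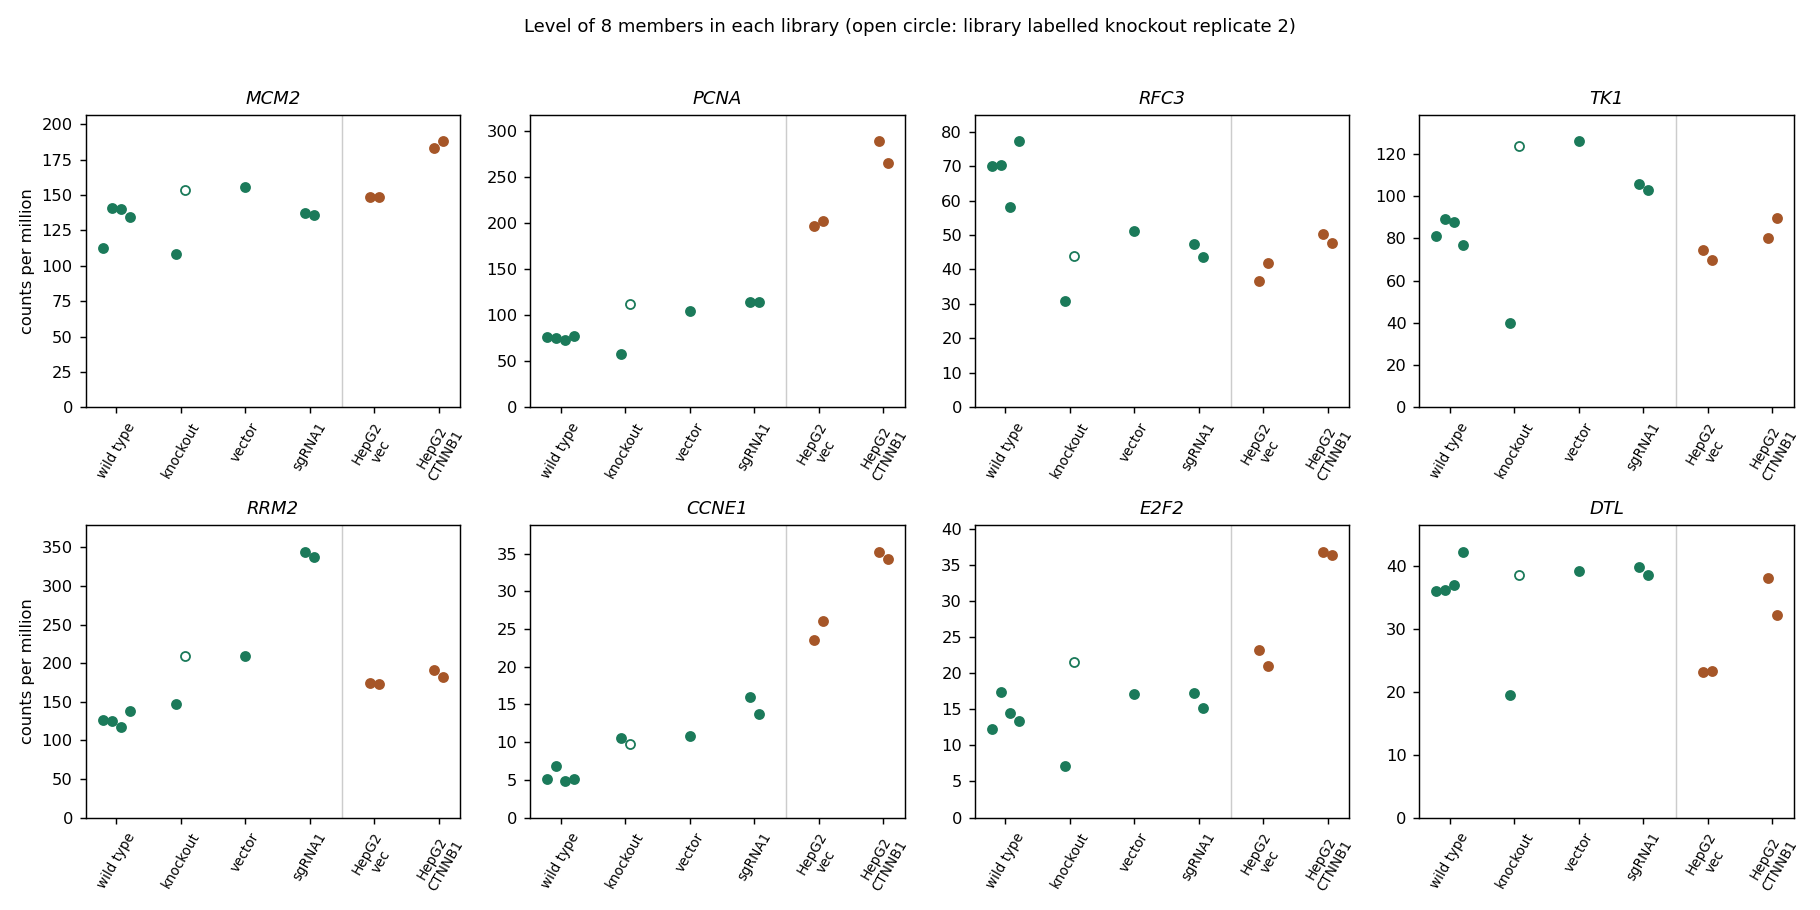
CPM of 8 members in each of the 13 libraries (each point 1 library; y axes start at 0; NUGC4 in green, HepG2 in brown; the open circle is the library labelled knockout replicate 2). RFC3, TK1, E2F2 and DTL lie lowest among NUGC4 libraries in knockout replicate 1, RRM2 is highest in the 2 sgRNA1 libraries, and in HepG2 each plotted gene lies higher in both CTNNB1 libraries than in both vector libraries.

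CTNNB1 overexpression in HepG2 was compared with the empty vector to ask how stabilised beta-catenin alters transcription. Of the 45 members 34 (75.6%) rose and 0 fell (edgeR, adjusted p under 0.05; 36 and 0 at an unadjusted p under 0.05; 26 and 0 with DESeq2; 33 and 0 with limma-voom), while of the 15703 genes tested 12.8% were higher and 11.4% lower. The median log2 fold change was 0.33 over the members, or 25.4%, and 0.00 over all genes. Genes of every role rose, and the medians of the role groups ran from 0.19 for deoxynucleotide supply to 0.60 for CLSPN and DTL. Of the called members the smallest change was MCM7 (0.16) and the largest E2F2 (0.75).

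The E2F and cyclin group had a median log2 fold change of 0.49, with 4 of 5 genes past the threshold. E2F2 stood at 23.1 and 21.0 CPM in the vector libraries and 36.8 and 36.4 CPM with CTNNB1 (log2 fold change 0.75 ± 0.09 SE, adjusted p = 3.83e-07), and E2F8 at 7.92 and 7.81 CPM and 13.0 and 11.0 CPM (log2 fold change 0.61 ± 0.13 SE, adjusted p = 0.00105). E2F1 stood at 63.9 and 66.3 CPM and 87.9 and 94.6 CPM (log2 fold change 0.49 ± 0.07 SE, adjusted p = 3.61e-06). CCNE1 stood at 23.6 and 26.1 CPM and 35.3 and 34.3 CPM (log2 fold change 0.48 ± 0.09 SE, adjusted p = 1.38e-04). In these 4 genes the overexpressing and control libraries did not overlap. CCNE2 was close to undetected, with 0.913 and 1.68 CPM and 1.29 and 1.76 CPM, and its change of 0.19 ± 0.31 had the largest SE of any member.

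Of the 10 loading genes 8 rose, the hexamer entire. MCM2 stood at 148 and 149 CPM and 183 and 188 CPM (log2 fold change 0.33 ± 0.06 SE, adjusted p = 1.64e-04). MCM4 had the largest change of the 6 subunits (0.47 ± 0.06), and MCM5 (0.20 ± 0.06) and MCM7 (0.16 ± 0.06, adjusted p = 0.0499) the smallest. CDT1, at 80.1 and 86.8 CPM and 79.1 and 83.5 CPM, was the only member with a value below 0 (-0.03 ± 0.07, adjusted p = 0.781), and its controls and overexpressing libraries overlapped. Of the activators 5 of 6 rose, led by MCM10, a scaffold that helps the helicase to leave the origin, with 17.6 and 22.8 CPM and 37.2 and 29.3 CPM (log2 fold change 0.70 ± 0.11 SE, adjusted p = 3.10e-05).

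Of the polymerase genes 6 of 8 rose. POLA2, the regulatory subunit of polymerase alpha, stood at 17.9 and 15.6 CPM and 25.3 and 26.0 CPM (log2 fold change 0.63 ± 0.10 SE, adjusted p = 2.66e-05). POLD3 stood at 9.21 and 13.2 CPM and 18.0 and 15.6 CPM (log2 fold change 0.55 ± 0.13 SE, adjusted p = 0.00237), with a wider gap between its vector libraries than from the higher of them to the nearest treated one. The catalytic subunits of alpha and primase were not past the threshold, POLA1 at 0.19 ± 0.11 and PRIM1 at 0.24 ± 0.09 (adjusted p = 0.052). PCNA, the highest member per length, stood at 196 and 202 CPM and 289 and 265 CPM (log2 fold change 0.48 ± 0.06 SE, adjusted p = 9.13e-07). FEN1, LIG1, RFC3 and RFC5 rose with it, with values from 0.32 to 0.45, but RFC2 (0.03 ± 0.08) and RFC4 (0.06 ± 0.10) did not pass.

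CLSPN, the adaptor of the fork checkpoint, stood at 19.3 and 20.1 CPM and 32.3 and 27.4 CPM (log2 fold change 0.60 ± 0.10 SE, adjusted p = 4.32e-05), and DTL at 23.1 and 23.3 CPM and 38.2 and 32.3 CPM (log2 fold change 0.60 ± 0.09 SE, adjusted p = 2.09e-05). Of the nucleotide genes RRM1 (0.49 ± 0.07) and TK1 (0.25 ± 0.07) rose. RRM2, at 174 and 173 CPM and 191 and 182 CPM, was not past the threshold (log2 fold change 0.11 ± 0.06 SE, adjusted p = 0.19), and neither was TYMS, the thymidylate synthase (0.14 ± 0.06). CHAF1A (0.39 ± 0.07) and CHAF1B (0.25 ± 0.08) rose and SLBP (0.13 ± 0.07) did not pass. On composition-scaled values both overexpressing libraries lay above both controls for 41 of 45 members (91.1%), and for 30.5% of all genes. The count of members past the threshold was 24 to 31 with 1 library left out, and 0 were lower in each of these fits.

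**Figure D5:**
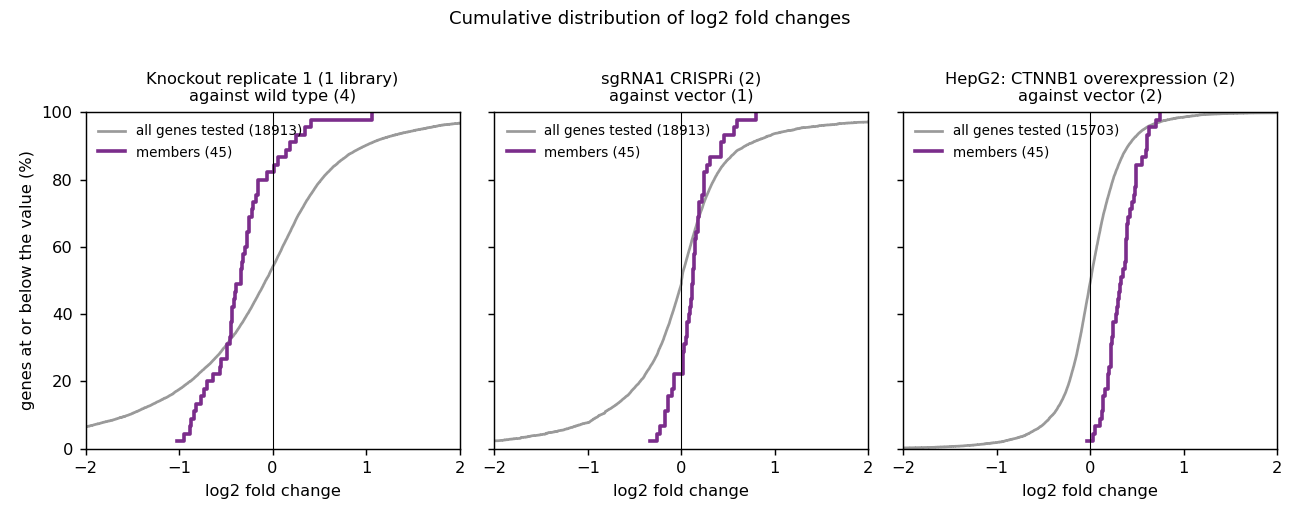
Cumulative share of genes (y axis, percent) at or below each log2 fold change (x axis, shown from -2 to 2) for the 45 members (purple) and all genes tested (grey) in the 3 comparisons. The members' curve is steeper than that of all genes; its middle lies left of theirs for the knockout (medians -0.34 and -0.07), near it for sgRNA1 (0.12 and 0.00) and right of it for CTNNB1 (0.33 and 0.00).

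The knockout and HepG2 comparisons share no libraries. Of the 22 members lower in the knockout, 19 (86.4%) were higher in HepG2 with CTNNB1, and so were 15 of the other 23 (65.2%). Among all genes tested in both lines, 16.1% of those lower in the knockout and 11.7% of the rest were higher in HepG2. The differences between these shares were not tested. The 19 were ORC1, MCM4, MCM5, CDC45, GINS1, GINS4, PRIM2, POLA2, POLE, POLE2, RFC3, LIG1, RRM1, TK1, E2F2, E2F8, CHAF1A, CHAF1B and DTL. The other 3, CDT1, PRIM1 and POLA1, had no call in HepG2. CDC6 was higher in all 3 comparisons. ORC6, GINS3, RFC2, RFC4, TYMS, CCNE2 and SLBP had no call in any. RRM2 rose with both ARID1A reagents but was not past the threshold with CTNNB1, the reverse of RRM1, which fell in the knockout, rose with CTNNB1 and was not past the threshold with sgRNA1 (0.27 ± 0.12).

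Members with and without the E2F letters in their promoter window were set side by side. In the knockout the median was -0.33 for the 21 with the letters and -0.32 for the 18 without, with 10 and 8 lower. In HepG2 it was 0.35 and 0.26, with 17 of 21 and 12 of 18 higher. The difference between these classes was not tested.

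Other genes of the same processes, taken as lists of their own, give the setting of the members. Of all genes tested in knockout replicate 1, 18.7% fell and 19.5% rose. Of 45 other replication genes, 14 fell and 4 rose in it, with a median of -0.22. Those with the smallest adjusted p were ORC4, a core subunit of the origin recognition complex (-1.03 ± 0.14 SE, adjusted p = 1.95e-05), DNA2, a nuclease of long flaps (-1.12 ± 0.17, 4.88e-05), and RECQL4, a helicase that acts in initiation (-1.44 ± 0.23, 7.52e-05). Of the risers RRM2B, the p53-controlled reductase subunit, stood at 17.8, 16.7, 15.3 and 19.4 CPM in wild type and 41.5 CPM in the knockout (1.39 ± 0.15, 7.17e-07). SAMHD1, which degrades deoxynucleotides (1.16 ± 0.13, 1.41e-06), and POLD4, a small polymerase delta subunit (0.70 ± 0.11, 6.61e-05), rose too. Both reductase partners of RRM1, RRM2 and RRM2B, were thus higher while RRM1 was lower.

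Of the 27 genes of G1/S control that were tested, 2 rose and 7 fell in the knockout. CDKN1A, the p21 inhibitor of cyclin-dependent kinases, stood at 129.9, 137, 145 and 123 CPM in wild type and 299 CPM in knockout replicate 1 (1.29 ± 0.11, 2.98e-08), beside 303 CPM in the vector library and 348 and 378 CPM with sgRNA1. CCND1, cyclin D1, rose (0.81 ± 0.10, 3.96e-06), and SKP2, which targets p27 for destruction (-1.12 ± 0.17), CDK6 (-0.73 ± 0.13) and MYC (-0.64 ± 0.12) fell. Of 21 G2/M genes 8 fell and 1, UBE2C (0.44 ± 0.16), rose. The falls included BIRC5 (-0.71 ± 0.12), CENPF (-0.89 ± 0.16) and CENPE (-1.06 ± 0.21), and 12 of the 21 had no call. Of all genes tested 18.7% fell and 19.5% rose in this library.

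With sgRNA1 the same lists held 5 calls, where 4.62% of all genes rose and 4.11% fell. POLD4 (0.68 ± 0.12) and SAMHD1 (0.62 ± 0.15) rose among 45 replication genes and TPX2 (0.47 ± 0.13), a spindle factor, among the 21 of G2/M, while CDKN1B, the p27 inhibitor (-0.71 ± 0.15), and MYC (-0.43 ± 0.12) fell among the 27 of G1/S control. The medians were 0.12, 0.23 and 0.07 in that order of lists. POLD4 and SAMHD1 were also 2 of the risers in the knockout.

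In HepG2 18 of the 45 other replication genes rose with CTNNB1 and 0 fell (2 at an unadjusted p under 0.05), with a median of 0.16. TOPBP1, which activates the checkpoint kinase ATR and helps origins to fire (0.68 ± 0.08, 6.88e-07), MCM8 (0.55 ± 0.08, 6.49e-06) and RRM2B (0.71 ± 0.10, 9.90e-06) had the smallest adjusted p. Of 29 G1/S control genes 10 rose, among them CDK6 (0.46 ± 0.07), TFDP2, a partner of the E2Fs (0.45 ± 0.07), and SKP2 (0.42 ± 0.08). The 3 that fell were CCND2 (-0.88 ± 0.24), CCND1 (-0.20 ± 0.06) and E2F4 (-0.21 ± 0.07), a repressor of the family. Of 21 G2/M genes 11 rose, led by MKI67 (0.48 ± 0.06), KIF11 (0.59 ± 0.08) and TOP2A (0.45 ± 0.06), and CCNB2 fell (-0.27 ± 0.07). The members (34 of 45) were past the threshold in a larger share than each of these lists, a comparison that was not tested. Of all genes tested in HepG2 12.8% rose and 11.4% fell.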

How the data were processed

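Gene-level read counts per library were deposited by the authors as 1 table of whole-number counts for 59250 gene symbols. The submitters' processing notes name the aligner STAR 2.7.10a and the build hg38, and the sources used here do not give the counting tool, annotation or strand setting. Of 14 columns of values, 13 matched a sample by name and 1 was used in no step.

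These counts were analysed with edgeR 4.0.16 in R 4.3.3 by its quasi-likelihood test (TMM factors, filterByExpr, Benjamini-Hochberg adjustment over all genes tested, threshold 0.05). The NUGC4 fit held 8 libraries (4 residual degrees of freedom) and the HepG2 fit 4 libraries (2). The library labelled knockout replicate 2 was left out because ARID1A goes against its label, and groups of 1 library were assumed to vary like the others. The SE is of the log2 fold change. Intervals between libraries cover no more than the spread seen here. The script was tested on simulated data. Alternatives were DESeq2 1.42.0, limma-voom (limma 3.58.1), other scalings, no filter, a replicate block, other sets of libraries in the fit, and each library left out in turn. After seeing the data, a crossed replicate block in HepG2 was added.

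Values are given per library for up to 8 called members with the largest change per comparison and for MCM2, PCNA, RRM2, CCNE1 and E2F1. Of other lists, up to 3 called genes per direction with the smallest adjusted p are named. POLD3, RRM1, CDC6, CCNE2, CDT1 and FEN1 are given in places outside that rule, chosen after their values were seen. The members and lists were chosen with earlier results of these data known. Promoter windows are from RefSeq (GRCh38.p14). No window was at hand for MCM4, MCM5, GINS4, POLD3, CCNE2 and E2F8.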

Additional observations from a re-analysis of the deposited data

Results flagged for a closer look

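In the 4 wild-type libraries 1 value stood apart from the other 3 for a pair of members: CCNE1 at 6.77 CPM in replicate 2, and DTL at 42.4 CPM in replicate 4. Such a gap arises by chance in about 1 in 20 groups of values, and 45 members were looked at.

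The effects of knockout replicate 1 and of sgRNA1 differed by the test of the difference for 5 members, as a difference of log2 fold changes: RFC3 by -0.95, DTL by -0.92, TK1 by -0.77, POLA1 by -0.67 and RRM1 by -0.59. The knockout and wild-type libraries are of the ribosomal RNA-rich kind and the vector and sgRNA1 libraries of the other, and the part of this in the difference was not tested.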

How the results depend on the processing

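With the library labelled knockout replicate 2 kept in the knockout group, the knockout calls became 3 higher and 3 lower with a median of 0.15, other listed genes had 6 lower (29 without it), sgRNA1 calls became 0 higher for members and 0 and 0 for other listed genes, and the difference had 0 lower and a median of 0.0374. In that setting 25 of 45 members changed sign against wild type, 12 of them among the 25 with a call: ORC1 to 0.14, MCM4 to 0.23, MCM5 to 0.0309, CDC45 to 0.0217, GINS4 to 0.33, PRIM1 to 0.15, LIG1 to 0.0632, RRM1 to 0.21, TK1 to 0.0795, E2F2 to 0.11, CHAF1A to 0.28 and CHAF1B to 0.18, and in the difference 21 of 45 changed sign, of the 5 with a call only TK1, to 0.26.

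Library totals left 1 member higher in the knockout and moved the split of all sgRNA1 calls from 874 higher and 778 lower to 622 and 1075. Other listed genes lower with sgRNA1 (2 as reported) were 4 with library totals, no filter or limma-voom, and those higher (3) were 7 with limma-voom. Members with sgRNA1 were 6 higher and 2 lower with only the groups compared, and other listed genes 24 and 6. Other listed genes lower in HepG2 (4) were 2 with DESeq2.

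The labels do not say that equal replicate numbers share a culture. With the replicate block, sgRNA1 members were 8 higher and 2 lower and other listed genes 26 and 6, the difference had 22 lower, and in HepG2 26 members were higher and 2 other listed genes lower. Deviations of equally numbered libraries correlated by 0.103 in NUGC4 and by -0.196 in HepG2. The crossed block in HepG2 gave 38 members higher and 10 other listed genes lower.

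With 1 library left out, knockout members lower were 16 to 23, sgRNA1 members higher 1 to 3, other listed genes higher 1 to 11 and lower 0 to 4, the difference 1 to 12 lower, HepG2 members higher 24 to 31 and other listed genes lower 2 to 4. Calls that held in every alternative run were 3 of 25 in the knockout (POLA1, RFC3 and CCNE1), 0 of 3 with sgRNA1, 19 of 34 in HepG2 and 0 of 5 in the difference. In NUGC4 these runs include the fit that kept labelled knockout replicate 2. In that library POLA1, RFC3 and CCNE1 stood at 25.8, 43.9 and 9.72 CPM, and in the vector library at 28.4, 51.3 and 10.8 CPM. Their wild-type means were 46.6, 68.9 and 5.48 CPM. The part of the library kind in these 3 calls was not tested.

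Summed CPM of members (2146 wild type, 2777 vector, 2917 sgRNA1, 2770.0 HepG2 vector, 3395 CTNNB1) were 1890.3, 2602, 2943, 3198 and 4019 on composition-scaled sizes and 2419, 3028, 3178, 2990.1 and 3625 without ribosomal and mitochondrial RNA. The causes of these changes were not tested.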
